A study of Sus scrofa with 18 samples.

Results

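The genes of the cytosolic ribosomal proteins were followed by RNA-seq in the whole fetal brain of domestic pigs. The 56 genes were chosen by name alone, as those called RPL or RPS plus a number in the gene table, with RPLP0, RPLP1, RPLP2, RPSA and FAU, and they are 56 of the 31908 genes of that table. By name, 32 belong to the large subunit of the ribosome and 24 to the small subunit. Gilts of a Landrace and Large White cross were bred by insemination to LR-M6 boars, no treatment was given, and 18 fetuses were taken at gestation day (GD) 45, 60 or 90, with 3 females and 3 males at each day. Each library holds the RNA of the whole brain of 1 fetus, selected by oligo(dT) beads, so that values average over all brain regions and cell types. Within each day, the litter sizes of the 3 females match those of the 3 males, which is how 3 litters with 1 female and 1 male each can be read from the labels. The groups differ in gestation day and sex, and no group carries an edited allele or received an agent. The comparisons ask how the brain transcriptome of each sex differs between neighbouring days of this series, and how the sexes differ at each day.

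Ribosomal proteins are made in near equal amounts, since each ribosome holds single copies of nearly all of them, and their genes are among the most strongly transcribed genes of dividing cells. Their mRNAs are short and usually begin with a run of pyrimidines at the cap, the 5′ terminal oligopyrimidine tract, through which translation is held back when mTOR signalling is low. Growing neural progenitors use much of their RNA output for ribosomes, while neurons depend on local and cytoplasmic translation long after their last division.

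The pyrimidine tract is the sequence feature that these mRNAs are known for, so the bases around the annotated RefSeq start sites (Sscrofa11.1) are shown for 7 genes that carry it. The window runs from 20 bases before the start to 10 bases from it, on the gene's own strand, and the longest unbroken run of C and T that covers the start or adjoins it is in capitals.
RPLP0: cgcgccggcgtacagCCCTCCTCTCgccag
RPL10: atgcgcaggcgtgggagcgCCTCTTTTCCT
RPL7: cagcgcgcatgcgctaaCTTCCTCTTTCCC
RPL32: accaatagccggaagtgCTCCTCTTTTCCC
RPLP2: cccgccccccgcgccggcgTCTTCCTTTCT
RPS20: cacgcaggcctcacgCCTTCCTCTTTgaag
RPS4X: cgcagccgcggaCCTTCTTTTCTCCgcgcg
These windows lie at chr14:40223934-40223963 (minus strand) for RPLP0, chrX:124927229-124927258 (plus strand) for RPL10, chr4:62602410-62602439 (plus strand) for RPL7, chr13:68793256-68793285 (minus strand) for RPL32, chr2:507871-507900 (plus strand) for RPLP2, chr4:75762189-75762218 (plus strand) for RPS20 and chrX:58155170-58155199 (minus strand) for RPS4X. A run of 8 or more pyrimidines that covers or adjoins the start was found in 15 of the 56 genes (26.8%) and in 6.01% of 19476 other genes with a RefSeq mRNA. The letters CTTTTC stood on either strand of the window in 8.93% of the ribosomal protein genes and in 1.94% of the others, and the letters CTTTCC in 10.7% and 2.20%. The paralogues RPL3L, RPS27L and RPL36AL are shown for contrast, with the same meaning of the capitals.
RPL3L: ttggaccagagatggggggaTgtggggagt
RPS27L: aacgtggctccctacccgCCatacaccagt
RPL36AL: cggtgaggctagagcagagCgagacccgga
These lie at chr3:40004887-40004916 and chr1:108881310-108881339 (both plus strand) and at chr1:179477811-179477840 (minus strand). Annotated starts are not cap sites measured in these brains, and a shorter run says only that these letters are not in the window.

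Of the 56 genes, 53 passed the filter on low counts. The 3 that did not were RPL10L, a copy of RPL10 known from testis, with no count in any library, RPL29 with 94 counts over all 18 libraries and FAU, which encodes a ubiquitin-like protein fused to the small-subunit protein eS30, with 32 counts. FAU shares 98.5% of its exonic bases with another gene and RPL29 shares 71.9%, and the counting options for such bases are not given in the sources used here, so that their low counts are no measure of their RNA. In all, 23 of the 56 genes share exonic bases with another annotated gene, 6 of them over more than 50% of their length, and RPL26 (85.6%), RPL5 (60.7%), RPL35A (57.2%) and RPL36AL (50.6%) are the others of those 6. Over the 18 libraries the mean level of the 53 genes ran from 1.11 to 1835 CPM (counts scaled to the library total), with a median of 565, and 48 of them were above 100 CPM. Per kilobase of RefSeq mRNA, the order began with RPS20 (2058 CPM per kb), RPLP1 (2009), RPS15 (1985) and RPL10 (1977). It ended with RPL36AL (145), RPL26 (47.1), RPS27L (31.3), RPL10A (4.27) and RPL3L (0.757). RPL10A, a large-subunit protein of every ribosome, shares 48.8% of its exonic bases with another gene, so its place near the end of this order may not be its RNA level.

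Library totals ran from 15118843 to 19729783 counts. A library stood apart at GD45: in male replicate 17 the 56 genes summed to 68706 CPM, beside 31675 to 41844 CPM in the other 5 GD45 libraries. That library also had the highest sum of 6 erythroid marker genes (671 CPM, others at GD45 at most 378). In a second library, female GD60 replicate 15, the genes did not keep their usual proportions. After the median shift of each library was taken out, the SD of the members' log2 deviations was 0.39 there and 0.09 to 0.25 in the other 17. Several results below that these libraries decide are also given without them. Both stood out in the members' own values, so calls of members without them are not independent of that choice. The sum of dividing-cell markers was 394 to 518 CPM at GD45, 183 to 242 at GD60 and 103.6 to 138 at GD90. Oligodendrocyte markers reached 1721 to 2968 CPM at GD90 from at most 73 CPM before. GD90 brains thus differed from younger brains in the levels of cell type markers. In bulk samples, fewer cells of a type and less RNA per cell cannot be told apart.

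The summed level of the ribosomal protein genes was lower at later days. At GD45 the females had 41844, 37776 and 34821 CPM and the males 34444, 31675 and 68706 CPM. At GD60 the females had 25739.7, 28436 and 40215 CPM and the males 32036, 37742 and 41255 CPM. At GD90 the females had 27106, 19586 and 22532 CPM and the males 18323, 16807 and 15928 CPM. The means of 6 libraries were 41544 ± 13749 CPM at GD45, 34237 ± 6449 at GD60 and 20047 ± 4163 at GD90 (SD). Without male GD45 replicate 17 the GD45 mean was 36112 ± 3865 CPM (SD, n = 5). The GD45 and GD60 ranges overlapped, all 3 GD90 males lay below every GD60 library, and the highest GD90 female lay above the lowest GD60 female. As a share of all counts, the genes took 1.59% to 6.87% of a library. The small-subunit genes gave 40.5% to 42.8% of the sum in every library, so both subunits moved together. Of the 53 tested genes, 50 had a lower mean level at GD60 than at GD45 and a lower one again at GD90. Without male GD45 replicate 17 this held for 42 of the 53 by the mean of the 5 other GD45 libraries, and in the model that weights the sexes equally 31 of the 53 log2 fold changes for GD60 against GD45 were below 0.

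**Figure D1:**
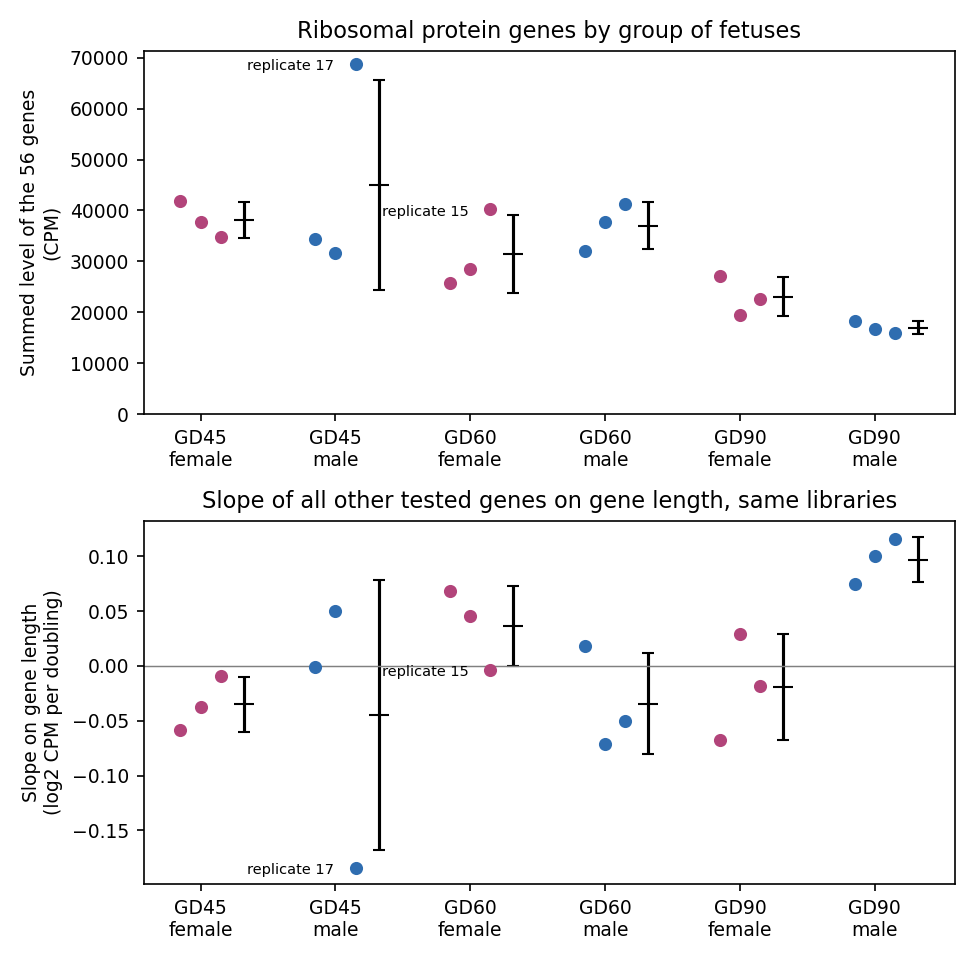
Summed level of the 56 ribosomal protein genes (CPM, top) and slope of the other tested genes on gene length (log2 CPM per doubling of length, bottom) in each of the 18 libraries, with the mean and SD of each group of 3 in black. Male GD45 replicate 17 has the highest sum (68706 CPM) and the lowest slope (-0.18), and the 3 GD90 males have the lowest sums and the highest slopes.

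From GD45 to GD60 few members passed the test, for which edgeR was used (quasi-likelihood F test, Benjamini-Hochberg adjustment over 16325 genes, threshold 0.05). None of the 53 was called in females, where 2.88% of all tested genes were called lower and 4.34% higher, and 2 members had an unadjusted p under 0.05. None was called in males (background 2.53% lower and 3.08% higher), with 0 at an unadjusted p under 0.05. DESeq2 also called none in either sex. Over both sexes 1 was called lower and none higher (7.37% and 9.35%), with 6 at an unadjusted p under 0.05. The median log2 fold change of the members was -0.25 in females, -0.35 in males and -0.32 over both sexes, while the medians of all tested genes were 0.01, -0.04 and -0.01. The male value rested on replicate 17 at GD45: without it the median in males was 0.26, in the other direction, and over both sexes -0.02. Without that library 5 members were called lower in females (6.04% of genes), and without female GD60 replicate 15 as well, 37 were called lower (9.40% of genes), with a median of -0.52. The adjacent comparisons share the 6 GD60 libraries, so their values are set side by side below and not related to each other.

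The called gene was RPS3, whose product lines the mRNA entry channel of the small subunit and also acts in DNA repair. At GD45, RPS3 ran from 993 to 1639 CPM (median 1178), at GD60 from 724 to 1044 CPM (median 926) and at GD90 from 444 to 707 CPM (median 555). Its log2 fold change over both sexes was -0.45 ± 0.14 (SE, adjusted p = 0.0332) for GD60 against GD45 and -0.65 ± 0.14 (SE, adjusted p = 0.00112) for GD90 against GD60. The lowest GD45 library was below the highest GD60 library, and every GD90 library was below every GD60 library. Of the members with the lowest changes in this period, RPLP2 had -0.57 ± 0.24 (SE, adjusted p = 0.11) and RPL26 -0.52 ± 0.28 (SE, adjusted p = 0.235). At the other end stood RPS25 with -0.06 ± 0.26, RPS29 with 0.03 ± 0.27 and RPL10A with 0.16 ± 0.26, with adjusted p-values of 0.9, 0.954 and 0.736.

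From GD60 to GD90 most members fell. Over both sexes 47 of the 53 were called lower and none higher, where 20.9% of all tested genes were lower and 21.4% higher, and the median log2 fold change was -0.76. In males 50 of 53 were lower and none higher (background 16.0% lower and 18.5% higher), with a median of -1.14. In females the median was -0.36, and none was called in either direction (background 13.4% lower and 13.7% higher), with 4 at an unadjusted p under 0.05, none called by DESeq2, and 50 of 53 log2 fold changes below 0. The female result moved with the libraries in the model. Without male GD45 replicate 17, which adds to the shared estimate of spread, 9 of 53 members were called lower in females, near the 17.5% of all genes. Without female GD60 replicate 15 as well, 1 was called lower (18.8% of genes) and RPL36AL higher. By subunit, 25 of 30 large-subunit genes and 22 of 23 small-subunit genes were called lower over both sexes, with medians of -0.72 and -0.86. In the deposited table of counts per exon, summed for each gene, 24 members were called lower over both sexes (16.5% of genes). The 6 members not called over both sexes were RPL26, RPL27, RPL31, RPL36AL, RPL3L and RPS28. Of the 15 genes with a run of 8 pyrimidines at the start, 13 were called lower (median -0.71), and of the other 38 tested genes, 34 (median -0.79).

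RPLP0, RPLP1 and RPLP2 build the stalk of the large subunit, on which the elongation factors dock, and all 3 were called lower over both sexes. The RPLP0 level was 2315, 2172 and 1857 CPM in the GD45 females, 1563, 1594 and 1981 CPM in the GD60 females and 1709, 1157 and 1385 CPM in the GD90 females. Males had 1938, 1845 and 3678 CPM at GD45, 1876, 2215 and 2624 CPM at GD60 and 1116, 1061 and 951 CPM at GD90. The GD90 males were below all GD60 libraries, while in females the highest GD90 value lay among the GD60 values. The log2 fold change of RPLP0 for GD90 against GD60 was -1.13 ± 0.28 (SE, adjusted p = 0.00586) in males and -0.19 ± 0.28 (SE, adjusted p = 0.651) in females. At GD45, RPLP1 ran from 931 to 2747 CPM (median 1225), at GD60 from 802 to 1495 CPM (median 1155) and at GD90 from 440.3 to 906 CPM (median 616). The change of RPLP1 over both sexes was -0.85 ± 0.27 (SE, adjusted p = 0.0164). At GD45, RPLP2 ran from 517 to 1356 CPM (median 579.5), at GD60 from 371 to 595 CPM (median 481) and at GD90 from 205 to 442 CPM (median 282). The change of RPLP2 over both sexes was -0.72 ± 0.24 (SE, adjusted p = 0.0209), and all 3 stalk genes were called in males.

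Among the small-subunit genes, RPS6, the substrate of the S6 kinases, was a typical member. The RPS6 level was 1039, 912 and 902 CPM in the GD45 females, 642, 710.0 and 897 CPM in the GD60 females and 615, 486 and 512 CPM in the GD90 females. The male levels were 909, 789 and 1543 CPM at GD45, 780.5, 935 and 975 CPM at GD60 and 449.9, 414 and 397 CPM at GD90. Every GD90 library lay below every GD60 library. Its log2 fold change was -0.76 ± 0.18 (SE, adjusted p = 0.0027) over both sexes, -1.12 ± 0.26 in males and -0.40 ± 0.25 in females. At GD45, RPSA ran from 779 to 1423 CPM (median 885), at GD60 from 629 to 968 CPM (median 802) and at GD90 from 406 to 672 CPM (median 497). RPSA, which is also known as the laminin receptor precursor, had -0.58 ± 0.17 (SE, adjusted p = 0.012) over both sexes. At GD45, RPS27A ran from 522 to 1175 CPM (median 657), at GD60 from 499.6 to 712 CPM (median 593) and at GD90 from 256 to 431 CPM (median 294). RPS27A, translated as a fusion of ubiquitin and the small-subunit protein eS31, had -0.89 ± 0.20 (SE, adjusted p = 0.00159), and its GD90 and GD60 levels did not overlap. At GD45, RPS4X ran from 717 to 1029 CPM (median 769.6), at GD60 from 573 to 892 CPM (median 698) and at GD90 from 439.8 to 650.2 CPM (median 481). RPS4X, an X-linked member, had the smallest fall among the called small-subunit genes, -0.44 ± 0.16 (SE, adjusted p = 0.0304).

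Among the large-subunit genes, RPL10 completes the peptidyl transferase centre late in assembly. The RPL10 level was 2173, 1969 and 1755 CPM in the GD45 females, 1432, 1439 and 1883 CPM in the GD60 females and 1522, 1026 and 1186 CPM in the GD90 females. The males had levels of 1826, 1616 and 3513 CPM at GD45, 1664, 2089 and 2346 CPM at GD60 and 1028, 921 and 818 CPM at GD90. Its log2 fold change for GD90 against GD60 was -1.17 ± 0.30 (SE, adjusted p = 0.00668) in males and -0.27 ± 0.29 (SE, adjusted p = 0.537) in females, and its groups overlapped as those of RPLP0 did. RPL5 and RPL11 form, with the 5S RNA, the particle that binds MDM2 when ribosome assembly is disturbed. At GD45, RPL5 ran from 545 to 799.8 CPM (median 634), at GD60 from 454 to 669.9 CPM (median 543) and at GD90 from 295 to 427 CPM (median 314). At GD45, RPL11 ran from 643 to 1334 CPM (median 703), at GD60 from 483 to 814 CPM (median 666) and at GD90 from 272 to 482 CPM (median 345). Every GD90 library of both genes lay below every GD60 library. The change over both sexes was -0.67 ± 0.16 (SE, adjusted p = 0.00252) for RPL5 and -0.86 ± 0.21 (SE, adjusted p = 0.00303) for RPL11. RPL7 had -0.76 ± 0.20 (SE, adjusted p = 0.00561) and RPL7A, an unrelated protein despite the name, -0.69 ± 0.25 (SE, adjusted p = 0.0351). RPL6, with the third highest mean CPM of the members, ran from 1009 to 1521 CPM (median 1229) at GD60 to 626 to 944 CPM (median 707) at GD90, a change of -0.71 ± 0.17 (SE, adjusted p = 0.00279).

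RPS29, RPS25 and RPS15 had the lowest log2 fold changes of the second period over both sexes, where female GD60 replicate 15 enters. In males alone RPS13 had the lowest change (-1.66), with RPS15 at -1.45, RPS29 at -1.37 and RPS25 at -1.30. The RPS29 level was 317, 274 and 274 CPM in the GD45 females, 187, 281 and 550.3 CPM in the GD60 females and 217, 140.1 and 166 CPM in the GD90 females. Among the males they were 189, 275 and 528 CPM at GD45, 323, 279 and 311 CPM at GD60 and 141, 109.8 and 108 CPM at GD90. Female GD60 replicate 15, listed last in its group, was the highest of all 18 libraries. The RPS25 level was 633, 471 and 507 CPM in the GD45 females, 333, 394 and 941 CPM in the GD60 females and 322, 247 and 303 CPM in the GD90 females. In males the values were 484, 426 and 884 CPM at GD45, 466, 559 and 596 CPM at GD60 and 219.6, 229 and 222 CPM at GD90. The same library was again the highest. The RPS15 level was 1152, 1126 and 1023 CPM in the GD45 females, 747, 850.3 and 1387 CPM in the GD60 females and 685, 493 and 542 CPM in the GD90 females. The male libraries held 1039, 966 and 2501 CPM at GD45, 934, 1143 and 1173 CPM at GD60 and 452, 392 and 370.2 CPM at GD90. Over both sexes the log2 fold changes for GD90 against GD60 were -1.13 ± 0.28 (SE, adjusted p = 0.00349) for RPS29, -1.09 ± 0.26 (SE, adjusted p = 0.00277) for RPS25, which some viral and cellular internal ribosome entry sites need, and -1.09 ± 0.25 (SE, adjusted p = 0.00208) for RPS15. RPS15 had 0.01 on the counts per exon, which hold 1.18% of the reads of its gene count, and RPS29 -0.27 on 1.13% (adjusted p = 0.975 and 0.343). In females, where replicate 15 enters, they were -0.90 ± 0.39, -0.88 ± 0.36 and -0.72 ± 0.35, and none passed the test (adjusted p = 0.1, 0.0852 and 0.137). In that library RPL26, RPL3L, RPS13 and RPS3 were at the other end, chosen here for that place after their values were seen. RPL26 was at 21.03, 25.3 and 9.33 CPM in the GD60 females, RPS13 at 111, 106 and 75.01 CPM and RPS3 at 800.1, 871 and 724 CPM, with replicate 15 last each time and the lowest of its group. Replicate 15 thus had high and low members at once, whereas male GD45 replicate 17 was the highest library for 49 of the 53 genes.

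**Figure D2:**
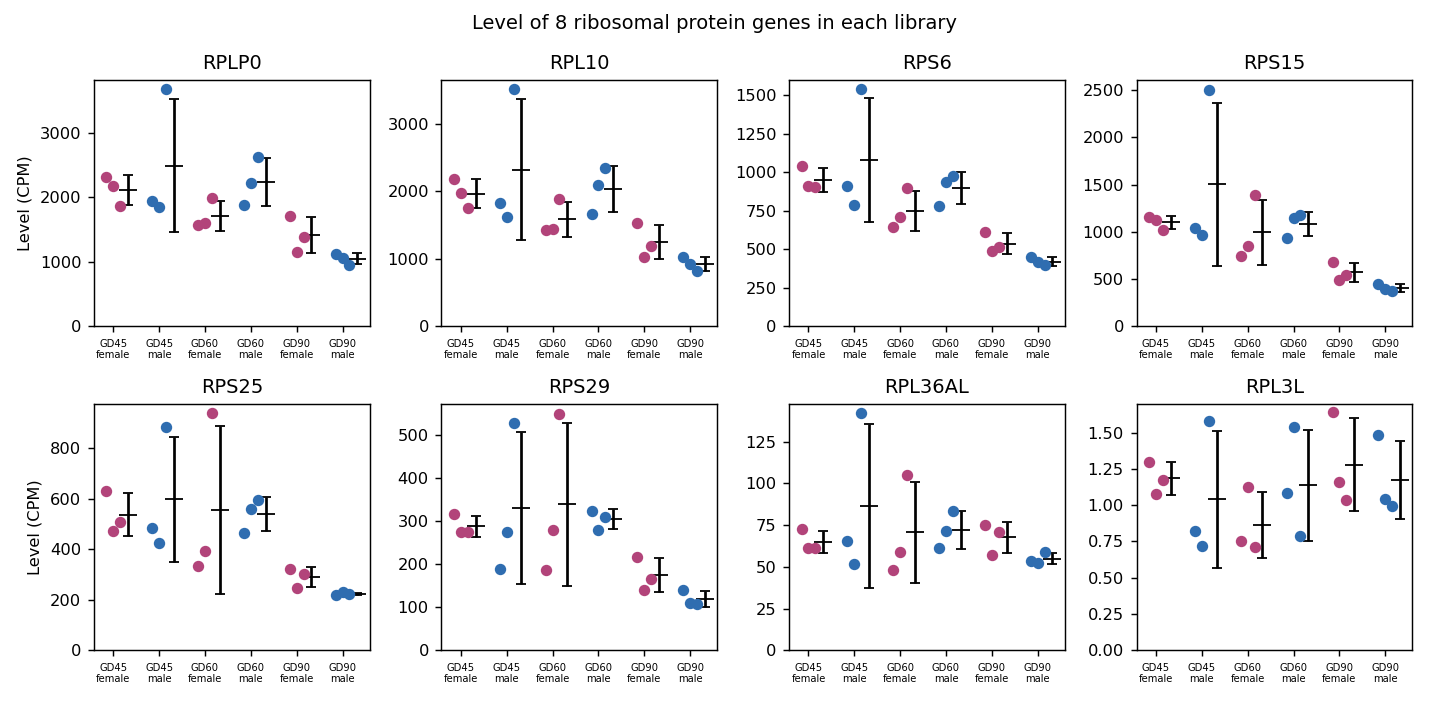
Level (CPM) of 8 ribosomal protein genes in each library, with the mean and SD of each group of 3 in black. RPLP0, RPL10, RPS6 and RPS15 are lowest in the GD90 males, RPS25 and RPS29 are highest in a GD60 female, RPL36AL is highest in a GD45 male, and RPL3L stays between 0.71 and 1.64 CPM.

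Some members are paralogues of others, and most of these had low levels. RPL3L is a paralogue of RPL3 known from heart and skeletal muscle. RPL3 itself ran from 867 to 1706 CPM (median 975) at GD45 to 501 to 716 CPM (median 550.3) at GD90, with -0.56 ± 0.19 (SE, adjusted p = 0.023) for GD90 against GD60. At GD45, RPL3L ran from 0.718 to 1.58 CPM (median 1.13), at GD60 from 0.7096 to 1.54 CPM (median 0.934) and at GD90 from 0.992 to 1.64 CPM (median 1.103). Its log2 fold change was 0.35 ± 0.28 (SE, adjusted p = 0.333), the only value above 0 among the 53 over both sexes, and the 3 days overlapped. RPL36AL is a paralogue of RPL36A, a gene not analysed here. The RPL36AL level was 72.8, 61.1 and 61.2 CPM in the GD45 females, 48.4, 58.9 and 105 CPM in the GD60 females and 74.99, 57.2 and 70.6 CPM in the GD90 females. In the males it was 65.3, 51.8 and 142 CPM at GD45, 61.3, 71.5 and 83.8 CPM at GD60 and 53.6, 52.3 and 58.8 CPM at GD90. The groups overlapped at all days, and its change was -0.21 ± 0.26 (SE, adjusted p = 0.533). RPS27L, a target of p53, ran from 23.4 to 46.4 CPM (median 30.6) at GD45 and 17.1 to 33.5 CPM (median 23.3) at GD60 to 11.6 to 16.00 CPM (median 15.2) at GD90. Its change for GD90 against GD60 was -0.68 ± 0.21 (SE, adjusted p = 0.0162) over both sexes, but neither sex alone passed (-0.69 ± 0.30 in males and -0.67 ± 0.30 in females). RPL10A, at 2.39 to 5.43 CPM (median 3.83) at GD60 and 1.600 to 2.45 CPM (median 2.07) at GD90, had -0.89 ± 0.27 (SE, adjusted p = 0.0141).

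The log2 fold change from GD60 to GD90 was lower in males than in females for each of the 53 genes, by a median difference of -0.83. The interaction of sex and day, which tests this difference, called no member in the model of all 18 libraries, and it called no gene of the 16325 either, with 15 members at an unadjusted p under 0.05. DESeq2 called no member either, with 18 at an unadjusted p under 0.05. Without male GD45 replicate 17 the interaction called 26 members, all with a lower change in males (6.63% of genes), and without female GD60 replicate 15 as well, 50 members (14.1% of genes). For RPLP0 the difference was -0.94 ± 0.39 (SE, adjusted p = 0.23) with all libraries and had an adjusted p of 0.025 without replicate 17. RPL26 had the lowest difference, -1.52 ± 0.58 (SE, adjusted p = 0.21). RPS27L had the one closest to 0, -0.02 ± 0.42 (SE, adjusted p = 0.986). Between males and females of the same day no member passed the test in edgeR or DESeq2. The median log2 difference of males from females was 0.38 at GD45, 0.30 at GD60 and -0.51 at GD90, with 0, 2 and 3 members at an unadjusted p under 0.05 in edgeR. The GD45 value rested on male replicate 17: without it the GD45 difference was below 0 for every member. RPLP0 then had -0.17 in place of 0.38, and RPL10 had -0.20 in place of 0.39. At GD90 all 53 genes were lower in males, and without both libraries 40 of them passed the test (6.38% of genes). Both libraries were left out for the members' own values. These calls, and those of the interaction without them, are thus no separate support for a sex difference.

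The libraries also differed in how the level of a gene depended on its length. For each library, the deviation of log2 CPM from the gene's mean over libraries was regressed on log2 of the gene length that the authors list, over all tested genes except the members. A negative slope means that short genes stood higher in that library than in the others. The slope was -0.18 in male GD45 replicate 17 and 0.075, 0.10 and 0.12 in the 3 GD90 males, and the other 14 libraries lay between -0.071 and 0.068. The median listed length of the members was 1776 bases, against 4186 for all tested genes, and the median RefSeq mRNA was 665 against 3201 bases. In 5 of the 6 groups the library order by summed members was the inverse of the order by slope, the GD60 males being the exception. Some libraries of near equal slope, picked for that, are set side by side. At slopes of -0.071, -0.059 and -0.067, male GD60 replicate 6, female GD45 replicate 12 and female GD90 replicate 2 had sums of 37742, 41844 and 27106 CPM. At slopes of 0.068 and 0.075, female GD60 replicate 3 and male GD90 replicate 1 had 25740 and 18323 CPM. The GD90 library was the lowest in both sets, but GD60 was not always below GD45. At a slope of -0.0034, female GD60 replicate 15 had 40215 CPM. At -0.00078 and -0.0089, male GD45 replicate 11 and female GD45 replicate 18 had 34444 and 34821 CPM.

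**Figure D3:**
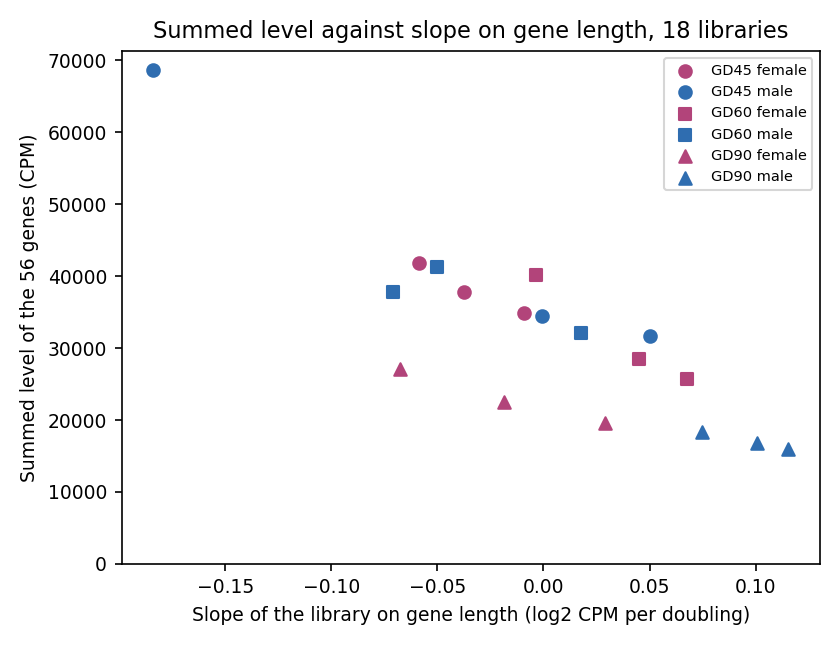
Summed level of the 56 genes (CPM) against the slope of the same library on gene length (log2 CPM per doubling of length), 1 point per library, with shape for the gestation day and color for the sex. In 5 of the 6 groups the sum is lower at higher slopes, and the 3 GD90 females and the GD90 male with the lowest slope (18323 to 27106 CPM) lie below the GD45 and GD60 libraries nearest in slope. The other 2 GD90 males have higher slopes than any GD45 or GD60 library.

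How far this trend accounts for the members' pattern was measured in 2 ways. First, a smooth trend on the listed length was fitted to each library and read at the members' own lengths. For GD90 against GD60 in males, the trend alone gave the members a median of -0.18, which is 15.6% of the observed -1.14. In females it gave 0.12, of the opposite sign to the observed -0.36, and over both sexes -0.02, or 2.59% of the observed -0.76. With the trend removed, 10 members were called lower in females (14% of all genes), 50 in males (18.5%) and 49 over both sexes (23.1%), with medians of -0.46, -1.01 and -0.73. For GD60 against GD45 the trend gave -0.13 of the observed -0.25 in females and -0.02 of the -0.35 in males. For GD90 against GD60 with the trend removed, 51 of the 53 log2 fold changes were below 0 in females and 52 in males. RPL3L was above 0 in both, and the plot of change against length shows the members beside other genes of their length. The trend is that of all genes of a given length, and RefSeq mRNA length, chosen after the data were seen, was tried in its place. With that trend removed, 40 members were called lower in females (15.6% of genes) and 49 in males (18.8%), with medians of -0.54 and -0.73.

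**Figure D4:**
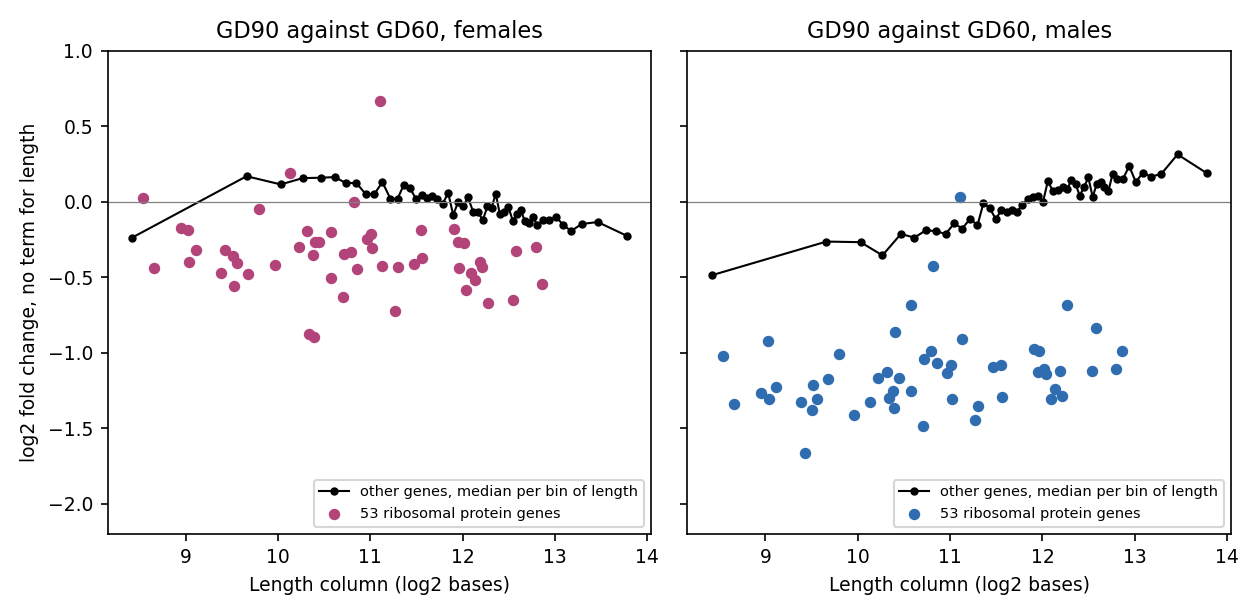
Log2 fold change for GD90 against GD60 of the 53 ribosomal protein genes (colored points) by gene length (log2 bases), with the median of the other tested genes in 50 bins of length (black line), for females (left) and males (right). In females short genes lean upward and most members lie below them, and in males short genes lean downward and most members lie further below, around the median of -1.14.

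Second, the slope of each library entered the model as a covariate, so that the members' own response to it could be estimated. All 53 had a negative coefficient and 52 passed the test (24.0% of all tested genes had a negative coefficient that passed), RPL10A being the exception. The median coefficient was -0.64 in log2 CPM for a rise of 0.1 in slope, from -0.80 for RPS21 to -0.38 for RPS3. The coefficient rests on differences within groups. Slopes spread most in the GD45 males (SD 0.123, other groups 0.020 to 0.048), where replicate 17 had -0.18. The slope model without that library is not reported here, so its results may rest largely on 1 library. With this term the female and male changes came out in the other order. For GD90 against GD60, 48 members were called lower in females (20.5% of genes) with a median of -0.69, and 18 lower and 1 higher in males (14% of genes lower) with a median of -0.32. Over both sexes 50 were called lower (26.1% of genes), with a median of -0.52. The member called higher in males was RPL36AL, at 0.56 ± 0.20 (SE, adjusted p = 0.0413). RPLP0 had -0.53 ± 0.10 (SE, adjusted p = 0.000544) in females and -0.35 ± 0.12 (SE, adjusted p = 0.042) in males, and RPS6 had -0.69 ± 0.09 (SE, adjusted p = 7.97e-06) and -0.40 ± 0.11 (SE, adjusted p = 0.00832). The median sex difference in the change turned from -0.83 to 0.36, with no member called under either model. For GD60 against GD45 over both sexes the median became 0.02, with RPS3 the only member called (-0.25 ± 0.07 (SE, adjusted p = 0.00921)). The slope differed between the groups compared, being 0.097 ± 0.020 in GD90 males and -0.034 ± 0.046 in GD60 males (SD, n = 3), so the slope and the day are partly confounded and cannot be told apart in males. Whether the slope reflects RNA quality, library preparation or the cells of the brain was not tested.

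**Figure D5:**
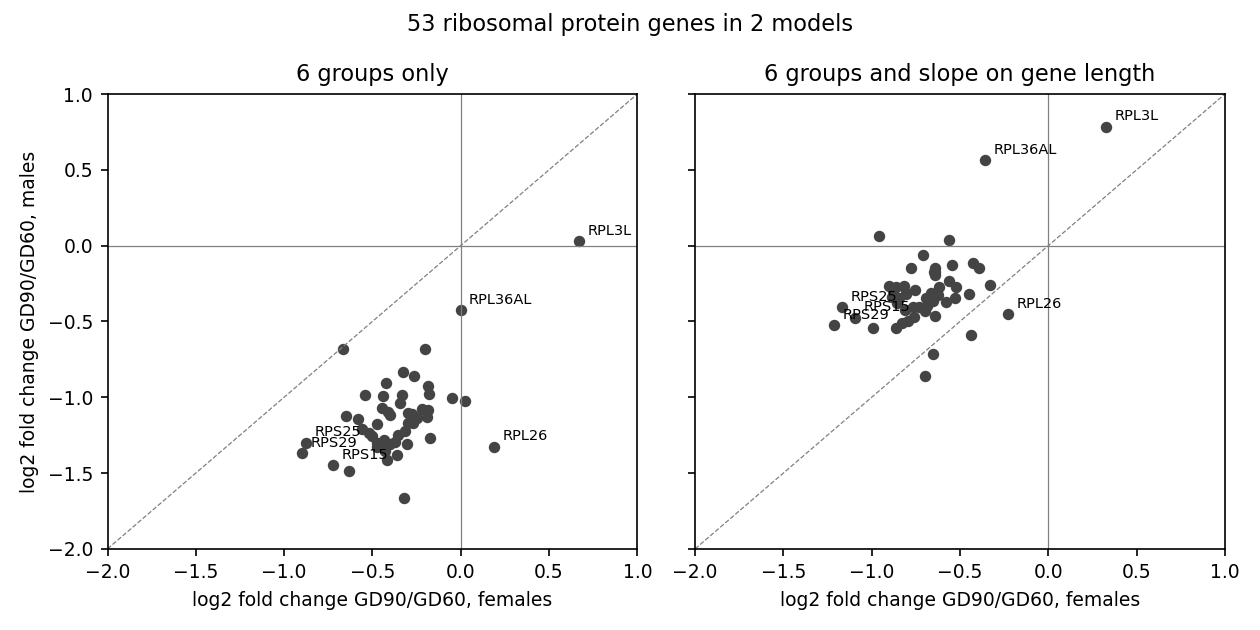
Log2 fold change for GD90 against GD60 of the 53 genes in females (horizontal) and males (vertical), from the model of 6 groups (left) and from the model that adds the slope on gene length (right), with the dashed line marking equal change. Most points lie below the line on the left (medians -0.36 and -1.14) and above it on the right (medians -0.69 and -0.32), and nearly all stay below 0 in both sexes.

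Genes that work with the ribosome were followed in lists written by function. Of 38 tested cytosolic translation factors, 18 fell and 4 rose from GD60 to GD90 over both sexes (median -0.27, background 20.9% lower and 21.4% higher). RACK1, a protein of the small subunit itself, went from a mean of 957 to 486 CPM (log2 fold change -0.97 ± 0.20, SE, adjusted p = 0.000837), and EEF1G, a subunit of the exchange factor of elongation, from 1341 to 814 CPM. EEF1A2, the form of the elongation factor known from neurons and muscle, rose from 2902 to 3868 CPM (0.44 ± 0.16, SE, adjusted p = 0.033). Of 45 ribosome biogenesis genes, 23 fell and 1 rose (median -0.30). FBL, the methyltransferase of ribosomal RNA, went from 57.8 to 31.3 CPM, TCOF1, which serves RNA polymerase I, from 74.7 to 37.4 CPM, and SBDS, which frees the large subunit for joining, rose from 49.8 to 78.8 CPM. Of 18 regulators of ribosome production, 8 fell and none rose (median -0.23). Among them were MYCN (68.8 to 41.4 CPM), EIF4EBP2 (346 to 189 CPM) and TSC2 (278 to 157 CPM). The others that fell were EIF4EBP1, MAF1, MXD4, MYC and RPS6KB2, while MTOR itself was at 141 and 138 CPM. This list mixes activators and repressors, so its count gives no direction for ribosome production. From GD45 to GD60 these 3 lists had 3, 3 and 1 genes lower and 0, 1 and 1 higher (background 7.37% lower and 9.35% higher).

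The mitochondrial ribosomal protein genes are the nearest comparison, being ribosomal as well. Of 65 tested, 4 fell and 1 rose from GD60 to GD90 over both sexes (median -0.11), where 20.9% of all tested genes were lower and 21.4% higher. In females none fell and 1 rose (median 0.16, background 13.4% lower and 13.7% higher). In males 10 fell and none rose (median -0.36), and 10 of 65 is near the background of 16.0% lower. Their response to the slope was negative and passed the test in 52 of 65 genes (24.0% of all tested genes), with a median of -0.43 for 0.1. With the slope as a covariate, 6 were lower and 12 higher over both sexes (median 0.05), where the cytosolic members had 50 lower and a median of -0.52.

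Markers of several cell types moved over the same days as the ribosomal protein genes. Of all tested genes, 7.37% were lower and 9.35% higher from GD45 to GD60 over both sexes. From GD60 to GD90 these shares were 20.9% and 21.4%, at which lists this short can hold a few calls. All 6 tested dividing-cell markers fell in both periods over both sexes, with medians of -1.13 and -0.91, and their GD90 sums were 103.6 to 138 CPM. The log2 fold changes of the ribosomal protein genes over both sexes had medians of -0.32 and -0.76. Of 5 radial glia markers, 4 fell in each period, and NES went from a mean of 339 CPM at GD45 to 172 and 67.7 CPM. From GD60 to GD90 all 4 astrocyte, 4 oligodendrocyte, 4 oligodendrocyte precursor and 5 microglia markers rose, 2 of 4 endothelial markers rose, and of 6 neuron markers 3 rose and 1 fell. Of 6 erythroid markers 3 fell, and of 5 fibroblast and meninges markers 2 fell and 1 rose. The part of these cells in the members' result was not tested.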

How the data were processed

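RNA-seq of 18 fetal brains was analysed from the deposited tables of counts. Per the study's methods, the authors used Trimmomatic to trim the reads, mapped them onto Sscrofa11.1 with HISAT2 and counted them per gene with featureCounts, and the deposited gene table holds raw counts. Its options for strand, multiple matches and overlapping genes are not given in the sources used here. The table has 22 columns for 18 libraries, and the 2 runs of each of 4 libraries were summed. Compared over genes, the chi-square divided by its degrees of freedom was 1.61 to 1.69 between runs of 1 library and 7.09 to 139 between libraries of 1 group. Library totals of 15118843 to 19729783 counts set the precision, and 1 library was 1 fetus, so p-values measure the spread between fetuses.

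Counts were filtered with filterByExpr, which kept 16325 genes with 99.9% of the counts. They were scaled by TMM and fitted in edgeR 4.0.16 (R 4.3.3) with 6 groups of day and sex, quasi-likelihood F tests and Benjamini-Hochberg adjustment at 0.05. CPM levels are counts scaled to the library total, without the TMM factors. Log2 CPM values used the TMM factors and a prior count of 2. The trend on length was a lowess curve (span 0.3) and was removed as an offset. Alternatives were DESeq2 1.42.0, other filters and scaling, the exon table, litters as blocks and libraries left out. The RefSeq length and GC trends, the members without shared exonic bases, the genes named elsewhere and the pair of libraries left out together were added after the data were seen. The test was checked on simulated counts.

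Members named in the text were those chosen by role, those 3 with the highest and 3 with the lowest change in each comparison over both sexes, those 3 with the highest and lowest mean level, and all that did not pass the filter. Genes of the rule that the gene table does not name were not analysed here, and 1 named member is not reported here. The members and gene lists were chosen with earlier results of these data known. The table of counts per transcript was not used here.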

Additional observations from a re-analysis of the deposited data

Results flagged for a closer look

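In the 6 libraries of GD45, male replicate 17 lay further from the others than Dixon's test allows at the 95% level for 15 of 25 measures, out of 23 named members, the summed level and the slope on gene length. No library was marked in this way at GD60 or GD90. Chance marks about 1 in 20 groups, and the marked measures are not independent, since they come from 1 library. In that library the summed level of the members was 68706 CPM, beside 41844 CPM in the next library of that day. Among the stalk genes RPLP0 was at 3678 CPM (next library 2315), RPLP1 at 2747 CPM (1404) and RPLP2 at 1356 CPM (638). In the large subunit RPL10 was at 3513 CPM (next library 2173), RPL7A at 2306 CPM (1347), RPL3 at 1706 CPM (1031), RPL7 at 1436 CPM (984), RPL11 at 1334 CPM (876) and RPL36AL at 142 CPM (72.8). In the small subunit RPS15 was at 2501 CPM (next library 1152), RPS6 at 1543 CPM (1039), RPSA at 1423 CPM (1006) and RPS27A at 1175 CPM (761).

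The change from GD60 to GD90 differed between the sexes in 26 members by the interaction of sex and day when male GD45 replicate 17 was left out, all with the lower change in males, where 6.63% of all tested genes were called in that direction. With all 18 libraries no member was called. The library left out stood out in the members' own values, so the 26 calls are not independent of its removal.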

How the results depend on the processing

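Counts below are members called lower unless said otherwise, out of 53 tested, and the cause of a difference was not tested. With all libraries, 13.4% of all tested genes were lower for GD90 against GD60 in females and 16.0% in males. Where the share of all genes under a setting is not given above, the count is not read as a result about the members. For GD60 against GD45 in females the count was 37 without male GD45 replicate 17 and female GD60 replicate 15, from 0 to 5 with single libraries left out (5 without male GD45 replicate 17), and 3 were called higher with the slope covariate. In males it was 2 with the slope covariate. Over both sexes (1 called) it was 0 with only the libraries of the 2 days compared, 0 without the members that share exonic bases, 0 beyond a log2 fold change of 0.5, and 2 each with the exon table, the RefSeq length trend removed, the GC trend removed, or without those 2 libraries. It ranged from 0 to 4 with single libraries left out (0 without female GD45 replicate 12 or 13, female GD60 replicate 3 or any GD60 male, and 4 without male GD45 replicate 11 or 14).

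For GD90 against GD60 in females (0 called) it was 7 with only the 2 days, 5 without TMM factors, 10 with the length trend removed and 10 with that trend fitted without the members, 40 with the RefSeq length trend removed, 48 with the slope covariate, and 1 lower and 1 higher without both libraries. It ranged from 0 to 9 with single libraries left out (9 without male GD45 replicate 17 and 2 without female GD60 replicate 3). In males (50 called) it was 18 with the slope covariate, which called 1 higher, 30 of 32 without the members that share exonic bases, and 35 to 51 with single libraries left out. Over both sexes (47 called) it was 24 with the exon table, 28 of 32 without the members that share exonic bases, and 36 to 51 with single libraries left out. With the 7 genes that only the table of gene names calls by a member's name, it was 53 of 60.

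For the interaction of sex and day, 2 members had a higher change in males from GD45 to GD60 without both libraries. From GD60 to GD90, 12 members had a lower change in males with only the 2 days, 50 without both libraries, and 0 to 26 with single libraries left out (26 without male GD45 replicate 17). Between the sexes at GD90, 40 were lower in males without both libraries. Summed per litter, the replicate block that equal litter sizes allow, 1 member was called lower at GD60 and 48 of 54 at GD90, and this block changed no other call of these counts.

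Some log2 fold changes for GD90 against GD60 changed sign. RPL36AL was 0.56 in males with the slope covariate and 0.46 in females without both libraries (from -0.23 to 0.46 with single libraries left out), and RPS15 was 0.013 over both sexes with the exon table. Of the values for named members, 2895 kept their direction and side of the threshold, 73 passed it newly, 70 no longer passed it and 69 without a call moved. Of those 70, 13 were with the exon table and 12 with the slope covariate.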
